A study of Mus musculus with 6 samples.

Results

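Expression of fatty acid and glycerolipid synthesis genes was examined in 4T1, a line of mouse mammary carcinoma cells that forms tumours and metastases. The gene group was fixed by name, as 42 genes of acetyl-CoA supply, fatty acid synthesis, elongation, desaturation, acyl-CoA ligation, glycerolipid assembly, their transcriptional control and lipolysis. Of these, 41 had a probe set with a single gene symbol, among 18193 such genes on the array, and Acsl1 was not analysed here. Each gene was read by its probe set with the highest mean over the 6 arrays. No filter on dim genes was applied, so all 41 entered the test, and 5 of them (Acacb, Elovl3, Elovl4, Lpin3 and Mlxipl) lay below the array medians in both groups.

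Cells of 1 group carried a control shRNA and cells of the other an shRNA against NFAT1, the calcium-regulated transcription factor encoded by Nfatc2, and all came from the same line. Both groups were under selection for 10 days before collection, and 200 ng of total RNA per sample was labelled for the array. Each group held 3 arrays. The labels give neither the shRNA sequence nor whether the cells were clones. Nor do they name separate cultures for the arrays, so the p-values reflect only how these samples vary, and that variation may be technical. Values are log2 RMA signals, and every difference is NFAT1 shRNA minus control on that scale.

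Fatty acids are built in the cytosol from citrate. Acly cleaves exported citrate to acetyl-CoA, Acaca carboxylates it to malonyl-CoA, and Fasn assembles palmitate with NADPH. Elongases of the Elovl family then lengthen acyl chains, Scd and Fads desaturases add double bonds, and acyl-CoA synthetases activate free fatty acids for use. Gpam places the first acyl chain on glycerol 3-phosphate, after which Agpat, Lpin and Dgat enzymes lead to phospholipids and triacylglycerol. The factors SREBP1, from Srebf1, and ChREBP, from Mlxipl, drive many of these genes, and lipid synthesis is commonly high in mammary carcinoma cells.

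Epithelial markers were present on all arrays: 8 of 9 listed epithelial genes lay above the array medians, with Krt5 below. The mean over this list was 10.99 to 11.07 on control arrays and 10.75 to 10.98 on NFAT1 shRNA arrays, and the basal keratin gene Krt14 read 10.54 ± 0.15 against 8.41 ± 0.96 (SD, n = 3 each; limma adjusted p = 0.123). Of the 6 measured adipocyte markers, Adipoq, Lep, Cidec and Fabp4 were below the array medians, and the list mean was 4.71 to 4.82 against 4.85 to 4.97. All 4 measured leukocyte markers, 5 of 6 fibroblast markers and 3 of 4 endothelial markers were below the array medians too. The part of these markers in the results below was not tested. Nfatc2 itself had 6 probe sets, 4 lower and 2 higher in NFAT1 shRNA cells. With limma 0 passed, and 2 lower and 1 higher had an unadjusted p under 0.05. The brightest probe set differed by 0.35 without overlap (limma adjusted p = 0.251 over probe sets), and another by -0.76 without overlap (0.0707). The targeted gene thus does not settle the labels, by which the groups are named. The arrays were not equally far apart. NFAT1 shRNA 1 correlated with the control arrays at 0.991 to 0.995 over probe sets, but at only 0.986 and 0.985 with NFAT1 shRNA 2 and 3. Control 3 lay between controls 1 and 2 in 157 of 157 genes with a control range of at least 1 log2 unit and a signal of at least 7, and in 25 of the 41 members. Results are therefore given without these arrays where that moves them.

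More synthesis genes had a lower than a higher mean signal in NFAT1 shRNA cells. The lowest values were those of desaturases, elongases and glycerolipid enzymes, and the enzymes of the path to palmitate lay near the controls. Of the 41 members, 31 had a lower and 10 a higher mean, with a median difference of -0.15, where the median over all genes was 0.04. Over all genes, 40.7% had a lower mean. With limma and Benjamini-Hochberg adjustment over all genes, 1 member fell, Gpam, where 0.330% of all genes were called lower. None of the 41 was called higher, where 0.181% of all genes were, and 3 had an unadjusted p under 0.05 on that side. In bulk samples, less RNA per cell and fewer cells with the RNA cannot be told apart.

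An unadjusted p under 0.05 was reached on the lower side by 13 members, which is 31.7%, where 7.01% of all genes did. On the higher side 3 members did, or 7.32%, where 10.1% of all genes did. The groups did not overlap for 16 lower and 2 higher members, or 39.0% and 4.88%, where 8.61% and 14.2% of all genes did not overlap in these directions. The members are brighter than most genes, with a median signal of 9.23 against 6.39. Among genes with a mean of at least 6, 12 of 34 members had an unadjusted p under 0.05 on the lower side, where 10.0% of all such genes did. These shares describe the list, which was chosen with earlier results of these data known, and carry no test of it.

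**Figure D1:**
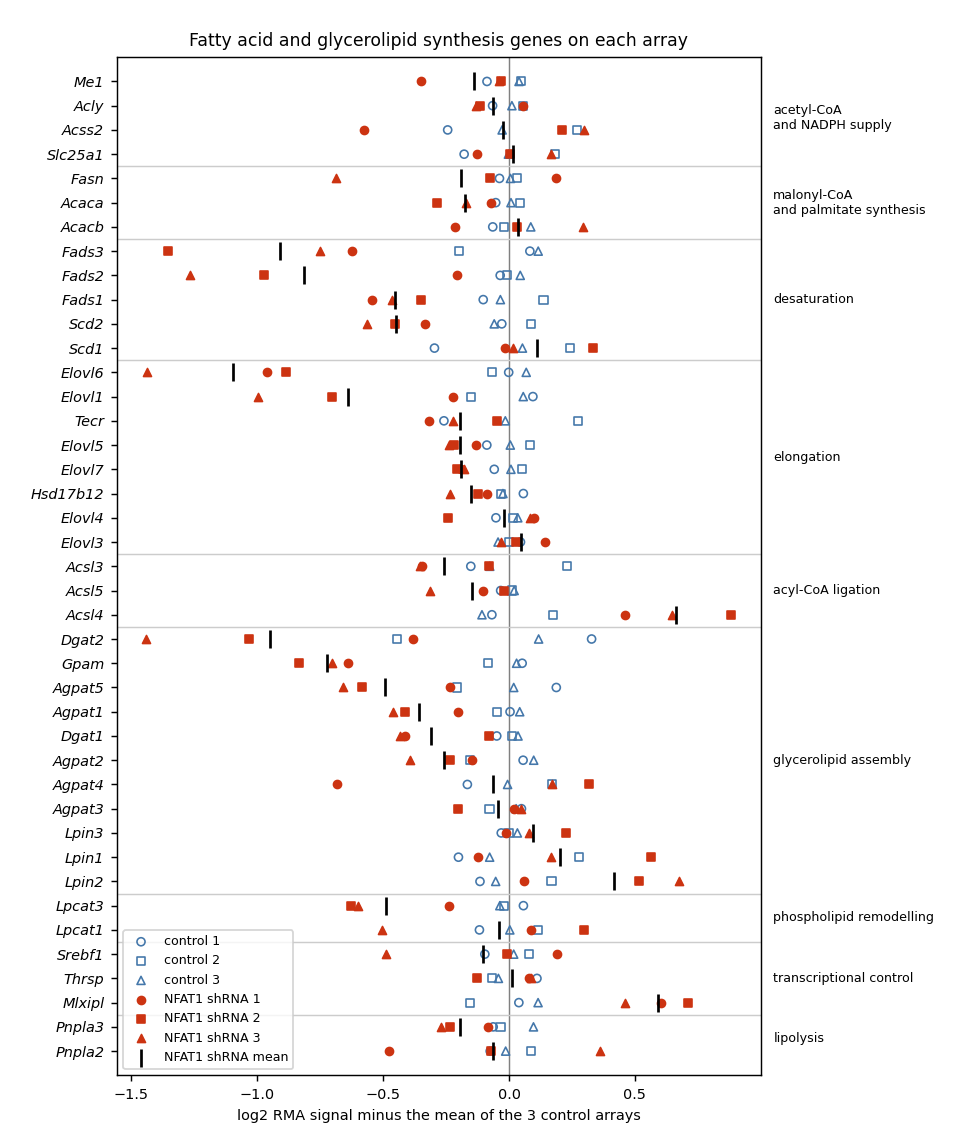
Log2 RMA signal of 41 synthesis genes on each of the 6 arrays, minus the mean of the 3 control arrays, ordered by enzymatic step. Open symbols are control arrays, filled symbols NFAT1 shRNA arrays and bars the NFAT1 shRNA mean. The largest shifts to the left are Elovl6 (-1.09), Dgat2 (-0.95), Fads3 (-0.91) and Fads2 (-0.82), and Acsl4 (0.66), Mlxipl (0.59) and Lpin2 (0.42) lie to the right.

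None of the genes from citrate to palmitate passed the test. Acly, which makes cytosolic acetyl-CoA, read 11.52, 11.64 and 11.60 in the control samples and 11.64, 11.47 and 11.45 with NFAT1 shRNA. The groups overlapped, and the difference of -0.06 ± 0.09 (SE) had a limma adjusted p of 0.72. Acaca, the carboxylase of the committed step, read 9.25, 9.35 and 9.31 in controls and 9.23, 9.02 and 9.13 in NFAT1 shRNA cells. Its NFAT1 shRNA arrays were all just below the controls, with a difference of -0.18 ± 0.09 (SE, limma adjusted p = 0.343). Fasn, the multifunctional synthase, read 11.49, 11.56 and 11.53 against 11.72, 11.45 and 10.84. NFAT1 shRNA 1 was the highest of the 6 arrays and NFAT1 shRNA 3 the lowest, and the mean difference was -0.19 ± 0.21 (SE, limma adjusted p = 0.656). Without NFAT1 shRNA 3 it was 0.06, so its direction rests on that array. Of the other suppliers, the citrate carrier Slc25a1 differed by 0.01, the acetyl-CoA synthetase Acss2 by -0.02 and the NADPH source Me1 by -0.14, none past the test. Acacb, the mitochondrial-side carboxylase, was below the array medians and differed by 0.04. With 3 arrays a group, a p above the threshold does not show equal levels.

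None of the 3 member regulators passed the test. Srebf1 read 9.74, 9.91 and 9.85 in the control samples and 10.03, 9.83 and 9.35 with NFAT1 shRNA. As for Fasn, NFAT1 shRNA 1 was the highest and NFAT1 shRNA 3 the lowest of the 6, so the groups overlapped, and the difference was -0.10 ± 0.18 (SE, limma adjusted p = 0.783), or 0.09 without NFAT1 shRNA 3. Mlxipl was dim, at 3.64, 3.45 and 3.72 in controls and 4.21, 4.31 and 4.07 in NFAT1 shRNA cells. All 3 NFAT1 shRNA arrays were above the controls (0.59 ± 0.11, SE; limma adjusted p = 0.0892), at a level where RMA compresses differences. Thrsp, a small protein tied to lipogenic tissues, differed by 0.01. Among upstream genes listed beside the members, Srebf2, the sterol-regulating partner of Srebf1, read 8.90, 9.03 and 9.07 in controls and 8.74, 8.62 and 8.60 with NFAT1 shRNA. All 3 of the latter arrays were lower (-0.35, limma adjusted p = 0.161). Of 11 measured regulators of this list (SREBP carriers, proteases and nuclear receptors), 5 were lower and 6 higher, and Srebf2 alone had an unadjusted p under 0.05 by limma, with 0 past adjustment. That is 9.09% of this list on the lower side, where 7.01% of all genes were.

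Gpam, the mitochondrial acyltransferase that commits acyl-CoA to glycerolipids, was the member that passed. It read 9.70, 9.57 and 9.68 in the control samples and 9.01, 8.82 and 8.95 with NFAT1 shRNA. The groups lay apart by more than their own spread, and Gpam fell by 0.72 ± 0.09 (SE, limma adjusted p = 0.0382), to 60.5% of control. Another, dim probe set of Gpam read 4.58 ± 0.09 against 4.81 ± 0.25 (SD, n = 3 each), a difference of 0.23, and the mean of both fell short of the test (-0.25, limma adjusted p = 0.278). Over single probe sets the brighter one had a limma adjusted p of 0.0507. Gpam did not pass without control 1, 2 or 3 (limma adjusted p = 0.232, 0.170 and 0.296), without NFAT1 shRNA 2 (0.110), without NFAT1 shRNA 3 (0.0749), or without both control 3 and NFAT1 shRNA 1 (0.0535), with a difference of -0.67 to -0.77 in these, and it did pass without NFAT1 shRNA 1 alone (0.00632). The window of its more proximal annotated start (bases before the start at chr19:55099478-55099727) held 0 matches of the motifs searched and is not shown. The 250 bases before the more distal of its annotated starts, from RefSeq on GRCm38.p6 (chr19:55127239-55127488, minus strand), are shown because Gpam was the called member, with an inverted CCAAT box in capitals 74 to 70 bases before the start.
Gpam: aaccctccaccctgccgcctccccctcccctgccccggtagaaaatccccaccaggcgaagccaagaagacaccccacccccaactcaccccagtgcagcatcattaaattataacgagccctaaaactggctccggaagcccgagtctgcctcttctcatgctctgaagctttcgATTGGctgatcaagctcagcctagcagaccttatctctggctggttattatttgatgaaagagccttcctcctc

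Downstream of Gpam the acyltransferases and the last step had lower means but did not pass. Agpat1, which adds the next acyl chain, read 8.38, 8.33 and 8.41 in controls and 8.17, 7.96 and 7.91 in NFAT1 shRNA cells. The groups did not overlap (-0.36 ± 0.09, SE; limma adjusted p = 0.176), while its dimmer probe set differed by -0.04. Agpat5, of the same family, read 10.78, 10.39 and 10.61 against 10.36, 10.01 and 9.94. NFAT1 shRNA 1 lay just under control 2, and the difference was -0.49 ± 0.15 (SE, limma adjusted p = 0.215). Dgat2, a triacylglycerol-forming enzyme, read 8.14, 7.37 and 7.93 against 7.43, 6.78 and 6.37. NFAT1 shRNA 1 was above control 2, so the groups overlapped in spite of a mean difference of -0.95 ± 0.31 (SE, limma adjusted p = 0.225). On its dimmer probe set the groups did not overlap (-0.47, limma adjusted p = 0.188 over probe sets). Dgat1, the other enzyme of this step, read 8.20, 8.26 and 8.29 against 7.84, 8.17 and 7.82. The groups did not overlap, though NFAT1 shRNA 2 was close to the controls (-0.31 ± 0.11, SE; limma adjusted p = 0.261), and its other probe set, at 5.61 in controls, differed by 0.02. Of the other acyltransferase members, Agpat2 differed by -0.26. Agpat3 and Agpat4 were near the controls (-0.05 and -0.06), each with probe sets in both directions.

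The phosphatidate phosphatases of the Lpin family had higher means. Lpin2 read 8.41, 8.69 and 8.47 in the control samples and 8.58, 9.04 and 9.19 with NFAT1 shRNA. NFAT1 shRNA 1 lay within the controls and the other arrays above them (0.42 ± 0.17, SE; limma adjusted p = 0.290), with a higher mean on each of its 4 probe sets. Lpin1 differed by 0.20 and the dim Lpin3 by 0.10. Of the 11 glycerolipid assembly genes, 8 had a lower mean and 3, the Lpin genes, a higher one, with a median of -0.26. Lpcat3, which reinserts polyunsaturated chains into phospholipids, read 9.41, 9.33 and 9.32 against 9.12, 8.73 and 8.75. Its groups lay apart (-0.49 ± 0.12, SE; limma adjusted p = 0.161), and Lpcat1, an enzyme for saturated chains, differed by -0.04.

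The desaturases had the lowest median of the steps, -0.45 over 5 genes. The lowest values were those of the neighbouring Fads genes. Fads1 and Fads2 make polyunsaturated fatty acids, and Fads3 is their homologue. Fads1 read 9.36, 9.60 and 9.43 in the control samples and 8.91, 9.11 and 9.00 with NFAT1 shRNA. It was lower on each NFAT1 shRNA array than on any control array (-0.45 ± 0.10, SE; limma adjusted p = 0.133). Fads2, the first desaturase of the polyunsaturated path, read 9.80, 9.82 and 9.88 against 9.63, 8.86 and 8.57. NFAT1 shRNA 1 was just below the controls and the other arrays were far below (-0.82 ± 0.26, SE; limma adjusted p = 0.219). Fads3 read 10.26, 9.98 and 10.30 against 9.56, 8.83 and 9.43. Here NFAT1 shRNA 2 was the lowest (-0.91 ± 0.20, SE; limma adjusted p = 0.140). All 8 probe sets of these 3 genes had a lower mean, from -0.07 to -1.10.

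Promoter windows were at hand for Fads2 and Fads3, both on chromosome 19, and are shown so that the pair can be compared. These are the 250 bases before each annotated start, from RefSeq on GRCm38.p6, for Fads2 at chr19:10101504-10101753 on the minus strand and for Fads3 at chr19:10041298-10041547 on the plus strand. Capitals mark CCAAT on either strand, which Fads3 has 2 times and Fads2 has 0 times in these bases.
Fads2: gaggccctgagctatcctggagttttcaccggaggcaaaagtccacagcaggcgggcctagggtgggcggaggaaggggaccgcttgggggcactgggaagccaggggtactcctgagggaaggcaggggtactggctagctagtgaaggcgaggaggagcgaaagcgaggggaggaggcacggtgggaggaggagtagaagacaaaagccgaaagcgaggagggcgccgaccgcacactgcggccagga
Fads3: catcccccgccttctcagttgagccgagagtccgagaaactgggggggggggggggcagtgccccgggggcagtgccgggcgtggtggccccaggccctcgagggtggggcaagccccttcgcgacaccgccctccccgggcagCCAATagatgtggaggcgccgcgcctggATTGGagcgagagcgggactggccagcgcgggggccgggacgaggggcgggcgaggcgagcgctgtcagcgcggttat

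The stearoyl-CoA desaturases, which make monounsaturated fatty acids, differed from each other. Scd2, the brightest member, read 13.01, 13.12 and 12.98 in the control samples and 12.70, 12.58 and 12.47 with NFAT1 shRNA. Every NFAT1 shRNA array was below every control (-0.45 ± 0.09, SE; limma adjusted p = 0.122), and its other probe sets were lower by more (-0.62 and -0.86). Scd1 read 10.10, 10.64 and 10.45 against 10.38, 10.73 and 10.41, so the groups overlapped (0.11 ± 0.17, SE; limma adjusted p = 0.746). Its other probe set had a lower mean, at 9.17, 9.47 and 9.24 against 9.08, 8.65 and 8.55, a difference of -0.54 ± 0.16 (SE) with a limma adjusted p of 0.225 over probe sets. Scd genes are close homologues, and how their probe sets share transcripts was not tested, so the direction of Scd1 is uncertain.

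**Figure D2:**
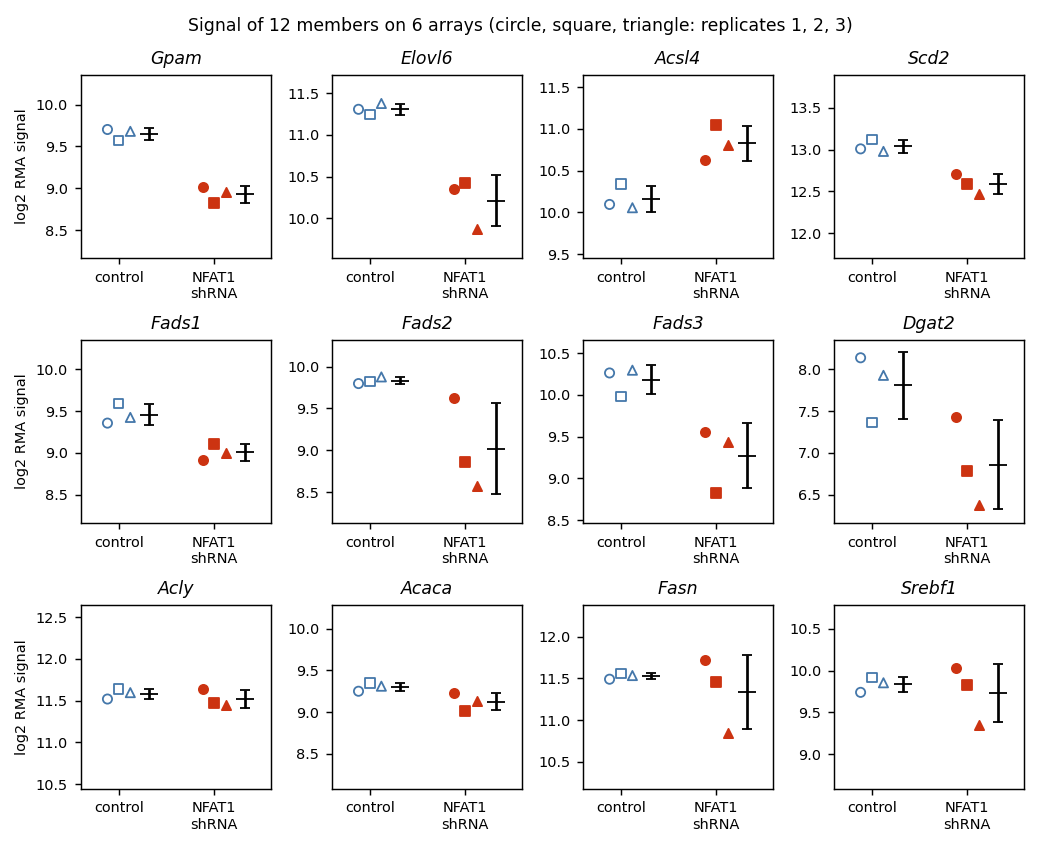
Log2 RMA signal of 12 members on the 6 arrays, control arrays open and NFAT1 shRNA arrays filled, with the mean and SD of 3 arrays beside each group; each panel spans 2.2 log2 units. Groups lie apart for Gpam, Elovl6, Acsl4, Scd2 and the Fads genes, by a small gap for Acaca, and overlap for Dgat2, Acly, Fasn and Srebf1.

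Among the elongases, Elovl6, which lengthens palmitate to stearate, had the largest difference of all 41 members. It read 11.31, 11.24 and 11.38 in the control samples and 10.35, 10.42 and 9.87 with NFAT1 shRNA. All 3 NFAT1 shRNA arrays, NFAT1 shRNA 1 included, were far below the lowest control, and the mean was 46.8% of control. The difference of -1.09 ± 0.16 (SE) had a limma adjusted p of 0.0513 and so just missed the threshold. Its other probe sets differed by -1.08 and -0.55. Elovl6 passed with array medians subtracted (limma adjusted p = 0.0434), without NFAT1 shRNA 1 (0.00879) and without NFAT1 shRNA 3 (0.0380), and did not without control 1, 2 or 3 (0.253, 0.206 and 0.343) or without NFAT1 shRNA 2 (0.109). The 250 bases before its start on GRCm38.p6, from RefSeq (chr3:129532136-129532385, plus strand), are shown with TTTCC, the reverse complement of the NFAT core letters GGAAA, in capitals at 53 to 49 and 26 to 22 bases before the start.
Elovl6: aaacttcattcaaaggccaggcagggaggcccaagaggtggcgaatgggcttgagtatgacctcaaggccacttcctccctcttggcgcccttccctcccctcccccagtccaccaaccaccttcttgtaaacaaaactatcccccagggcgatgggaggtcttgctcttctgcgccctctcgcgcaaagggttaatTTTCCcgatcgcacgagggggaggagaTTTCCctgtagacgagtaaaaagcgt

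Elovl1, which extends very long saturated chains, read 10.43, 10.18 and 10.39 in the control samples and 10.11, 9.63 and 9.34 with NFAT1 shRNA. NFAT1 shRNA 1 was only just below control 2 (-0.64 ± 0.20, SE; limma adjusted p = 0.215), with a lower mean on each of its 4 probe sets. Elovl7 read 9.75, 9.86 and 9.82 against 9.62, 9.61 and 9.64. Its arrays were tight within each group, but the difference was small (-0.19 ± 0.07, SE; limma adjusted p = 0.272). Elovl5, the elongase of polyunsaturated chains, differed by -0.20 without overlap (limma unadjusted p = 0.0539). The other enzymes of the elongation cycle, the ketoacyl reductase Hsd17b12 and the enoyl reductase Tecr, differed by -0.15 and -0.20, and Elovl3 and Elovl4 were below the array medians.

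Acsl4, which activates arachidonate and related chains, was the member with the largest difference upward. It read 10.09, 10.34 and 10.05 in the control samples and 10.62, 11.04 and 10.81 with NFAT1 shRNA. The groups lay apart (0.66 ± 0.14, SE), with a limma adjusted p of 0.12 for this brightest probe set. Its other probe sets read 8.76 ± 0.07 against 9.84 ± 0.21 and 7.52 ± 0.10 against 8.64 ± 0.22 (SD, n = 3 each). These rose by 1.08 and 1.12, and both passed in the test over all 45037 probe sets (limma adjusted p = 0.0401 each), where 0.0755% of probe sets were called higher. The mean of the 3 probe sets rose by 0.96 and passed over genes as well (limma adjusted p = 0.0448). Acsl4 and Gpam therefore exchange places with the choice of probe set. The bases before the Acsl4 start (chrX:142390536-142390785, minus strand of GRCm38.p6, RefSeq) are shown because Acsl4 had the called probe sets. They hold none of the motifs searched, and TTTCC, the reverse complement of GGAAA, lies at bases 2 to 6 after the start, past the bases shown.
Acsl4: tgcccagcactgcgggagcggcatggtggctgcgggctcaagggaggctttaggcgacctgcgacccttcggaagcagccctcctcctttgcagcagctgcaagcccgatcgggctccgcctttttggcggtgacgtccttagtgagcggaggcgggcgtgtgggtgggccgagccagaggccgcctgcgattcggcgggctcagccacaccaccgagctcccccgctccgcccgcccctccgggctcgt

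The other ligases among the members had lower means. Acsl5, at 12.55 in controls, differed by -0.15 and Acsl3 by -0.26, neither past the test. Acsl6, from the list of further isoforms, read 6.47 ± 0.24 against 7.17 ± 0.27 (SD, n = 3 each; limma adjusted p = 0.164) and had no overlap between the groups. The lipases Pnpla2 and Pnpla3 differed by -0.06 and -0.20. The 20 members not given array by array all had an unadjusted p above 0.05. Of these, 14 had a lower and 6 a higher mean, within -0.26 to 0.20.

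**Figure D3:**
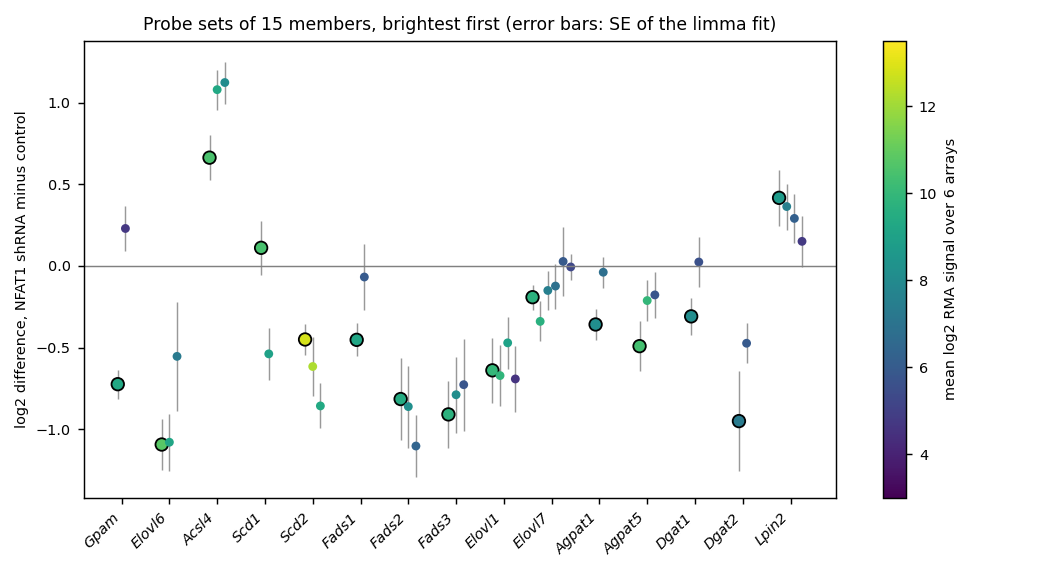
Log2 difference (NFAT1 shRNA minus control, error bars SE) of each probe set of 15 members, with the brightest probe set of a gene first and outlined, coloured by its mean log2 signal. The Fads2, Fads3, Scd2, Elovl1 and Lpin2 probe sets keep 1 direction, the Acsl4 probe sets lie at 0.66, 1.08 and 1.12, and those of Gpam and Scd1 lie on both sides of 0.

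Probe sets of a member mostly kept 1 direction. Of 98 probe sets of members, 71 had a lower and 27 a higher mean. Among the 31 members with several probe sets, all were lower in 16, all higher in 3 and mixed in 12. No member had probe sets beyond 0.5 log2 units in both directions. Both Acsl4 probe sets named above were the only ones of the 98 that passed with limma over all probe sets.

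The arrays did not contribute equally. The median over the members, against the control mean, was -0.15, -0.11 and -0.23 on NFAT1 shRNA 1, 2 and 3, and -0.05, 0.02 and 0.01 on controls 1, 2 and 3. The list median was thus lowest on the 3 NFAT1 shRNA arrays, although NFAT1 shRNA 1 lay close to the controls for Fads2, Elovl1, Dgat2, Agpat5 and Lpin2. Without NFAT1 shRNA 1, 11 members fell and 3 rose with limma, where 7.84% and 10.6% of all genes were called in these directions. These were Scd2, Elovl1, Elovl6, Fads1, Fads2, Fads3, Gpam, Agpat1, Agpat5, Dgat2 and Lpcat3 on the lower side, and Acsl4, Lpin2 and Mlxipl on the higher. Without control 3 as well, Fads2 alone passed, as a fall of 1.10 (limma adjusted p = 0.0447), where 0.984% of all genes were called lower. Without control 1, 2 or 3, or without NFAT1 shRNA 2, 0 members passed with limma. In these fits 10, 15, 10 and 12 members had an unadjusted p under 0.05, where 9.33%, 12.4%, 9.68% and 10.2% of all genes did.

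**Figure D4:**
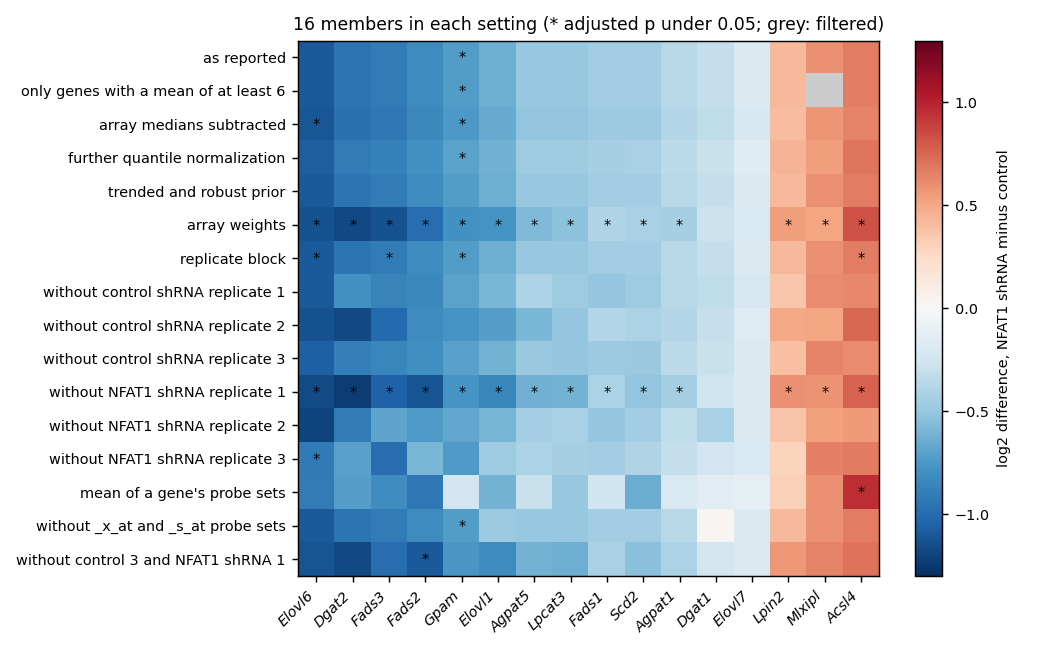
Log2 difference of the 16 members with an unadjusted p under 0.05 in the fit as reported and in 15 other settings, blue for lower and red for higher in NFAT1 shRNA cells, with a star where the limma adjusted p was under 0.05. Directions hold across settings except for Dgat1 without cross-hybridising probe sets (0.02), and most stars stand with array weights and without NFAT1 shRNA 1.

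Other lipid genes, listed by pathway beside the members, give the setting of these values. Cholesterol synthesis, driven by the related factor SREBP2, also held more lower means, 14 of 17 measured genes, around a median of -0.27. Over all genes, 40.7% had a lower mean. With limma 0 passed, and an unadjusted p under 0.05 was reached by 8, all lower, among them Hsd17b7 (-1.42), Cyp51 (-0.53) and Idi1 (-0.67). These 8 are 47.1% of the list, where 7.01% of all genes were lower at this threshold. Phospholipid synthesis read similarly, with 17 of 24 genes lower and a median of -0.14. Here 0 passed with limma and an unadjusted p under 0.05 was reached by 6, all lower, among them the CDP-diacylglycerol synthase Cds1 (-0.53) and the acyltransferases Mboat1 (-0.35) and Lpcat4 (-0.36). These 6 are 25% of that list. Of 7 measured cytosolic NADPH genes, Taldo1 (-0.37) and Pgd (-0.49) of the pentose phosphate path had an unadjusted p under 0.05, and 0 passed with limma. These 2 are 28.6% of a short list.

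Fatty acid oxidation, the opposing path in mitochondria, had mostly higher means. Of 16 measured genes 15 had a higher mean, where 10785 of all 18193 genes did, with a list median of 0.41. With limma 0 passed, and an unadjusted p under 0.05 was reached by 5 on the higher and 1 on the lower side. These are 31.25% and 6.25% of the list, where 10.1% and 7.01% of all genes did so. Acadvl, the very-long-chain dehydrogenase, read 8.92 ± 0.05 against 9.33 ± 0.12 and Hadh 11.53 ± 0.04 against 12.02 ± 0.21 (SD, n = 3 each; limma adjusted p = 0.134 and 0.153). Cpt1a, which admits acyl chains into mitochondria, read 6.94, 7.67 and 7.29 in controls and 7.47, 9.69 and 8.82 in NFAT1 shRNA cells. NFAT1 shRNA 1 lay within the controls there, and the gene was named after its values were seen. The list median was -0.03 on NFAT1 shRNA 1 and 0.51 and 0.60 on NFAT1 shRNA 2 and 3. Hadhb, a subunit of the trifunctional protein, was the 1 gene with a lower mean (-0.26).

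The remaining lists were mixed. Of 12 measured uptake and binding genes 4 were lower, among them the fatty acid carrier Fabp5, which read 12.92 ± 0.03 against 12.25 ± 0.41 (SD, n = 3 each; limma adjusted p = 0.202) and had the only unadjusted p under 0.05. That is 8.33% of this list on the lower side, where 7.01% of all genes were. Of 15 lipid droplet and lipolysis genes 10 were higher, and of 17 further isoforms 9, where 10785 of all 18193 genes had a higher mean. In both lists 0 passed with limma, while 5 and 4 had an unadjusted p under 0.05. On the lower side these were 13.3% and 11.8% of the lists, and on the higher side 20% and 11.8%. Over all genes 7.01% were lower and 10.1% higher at this threshold. The 3 smallest p in the lipid droplet list belonged to Cideb (0.34), Bscl2 (-0.32) and Fitm1 (0.25), and in the isoform list to Hacd2 (-0.31), Acsl6 (given above) and Gpat2 (0.26).

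**Figure D5:**
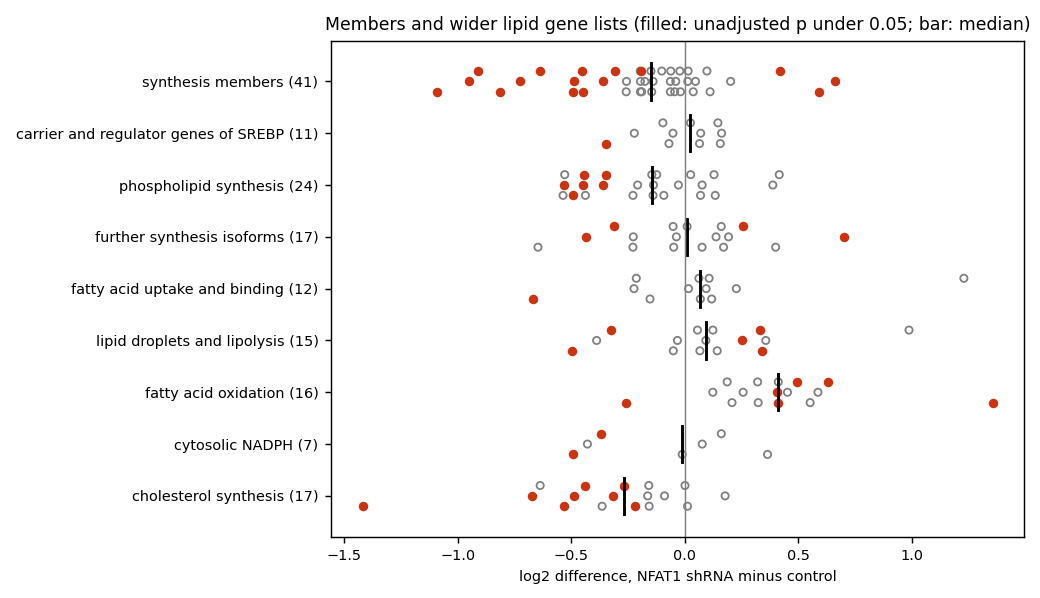
Log2 difference (NFAT1 shRNA minus control) of the 41 members and of 8 further lipid gene lists, 1 point per gene, filled where the unadjusted p was under 0.05, with a bar at the list median. Synthesis members, phospholipid and cholesterol synthesis have medians of -0.15, -0.14 and -0.27, and fatty acid oxidation 0.41.

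The promoters were searched for letters of factors tied to these genes, on both strands, in RefSeq windows of 300 bases, 250 before and 50 from the annotated start. Windows were found for 34 members, 44 in all, with 1 chromosome left out for the members but kept in the counts over all windows. The sterol regulatory element consensus TCACNCCAC was in 1 member, Mlxipl, or 2.27% of member windows, where 1.24% of all windows hold it. The CCAAT box was in 54.5% of member windows and 37.4% of all windows, and the E-box CACGTG in 13.6% and 7.15%. The NFAT core letters GGAAA were in 52.3% of member windows and 61.3% of all windows. Most member windows had a GC content above the median of all windows, 52.7%, within a range of 39.7% to 80.7%. The part of base composition in these shares was not tested. Of the 8 members with windows that were lower with an unadjusted p under 0.05, 5 held CCAAT, 4 GGAAA and 0 CACGTG. Of the 3 that were higher, 2 held each of these. Over all genes with windows the shares were 41.1%, 64.4% and 8.09%, and over the 34 members with windows 67.6%, 61.8% and 17.6%. These are matches of short letters and say nothing about binding, and no matches overlap in the bases printed.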

How the data were processed

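RNA of 6 samples was measured on Affymetrix mouse arrays, 3 per group, grouped and numbered by the labels. The authors deposited log2 signals. Per the submitters' processing notes these come from RMA, of unstated version. RMA corrects background, equalises array distributions and summarises probes, so a shift of most genes would be hidden and dim genes are compressed. Symbols come from the platform annotation (34945 of 45037 probe sets have 1), of which 34741 matched GRCm38.p6 by gene number.

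Groups were compared over 18193 genes by limma 3.58.1 (lmFit, then eBayes; R 4.3.3) with no covariate; changed means a Benjamini-Hochberg adjusted p under 0.05, 2-sided. The fit was tested on simulated data. Members and lists were chosen with earlier results of these data known. Values per array are given for the marker genes that came with the gene group (Gpam, Elovl6, Scd2 and Acsl4). They are also given for Acly, Acaca, Fasn, Scd1 and Srebf1, chosen by role, and for members with an unadjusted p under 0.05. Differences or means are given for up to 3 genes with the smallest such p per other list, besides Cpt1a, named after its values were seen. The number of arrays limits the precision. Alternatives were 15 settings, 1 of them added after seeing the data.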

Additional observations from a re-analysis of the deposited data

How the results depend on the processing

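The count of 93 changed genes was 59 among genes with a mean of at least 6, 3380 with array weights, 792 with the replicate number as a block, 407 without control 3 and NFAT1 shRNA 1, and 0 to 3349 without 1 array, with limma. It was 0 without control 1, 2 or 3 (1698, 2247 and 1761 at an unadjusted p under 0.05). The count of 1 changed member was 2 with array medians subtracted and 0 with a trended and robust prior. With that prior 14 members had an unadjusted p under 0.05, where 16 had as reported. As reported, 7.01% of all genes were lower and 10.1% higher at this threshold. The shares of all genes under both of these settings are not given here. The member count was 15 with array weights, 4 with the replicate block (Elovl6, Fads3, Gpam and Acsl4) and 0 to 14 without 1 array. Rises and falls numbered 33 and 60 as reported, 1822 and 1558 with array weights, and 417 and 375 with the block. The members' median ran from -0.13 to -0.19 over all 15 settings, within the spread between arrays. Signs turned, with a limma adjusted p of at least 0.324, for Fasn (-0.38 to 0.057 without 1 array), Srebf1 (-0.25 to 0.092), Scd1 (from -0.037 to 0.23, and -0.21 with the mean of its probe sets), Dgat1 (0.024 without _x_at and _s_at probe sets) and Nfatc2 (0.35 as reported, -0.14 with the mean of its probe sets). Of the members not given array by array, Acacb, Acss2, Slc25a1, Elovl3, Elovl4, Agpat3, Agpat4, Lpcat1, Thrsp and Pnpla2 turned in some settings. Whether same-numbered arrays form pairs is not settled. Their deviations correlated at 0.69, 0.53 and -0.04, and only arrays 1 and 2 correlated best with their own number. Control 3 lay between the other controls, so its correlations, from -0.04 to 0.02, could not show a pairing. Array weights gave control 3 a weight of 10.4 and NFAT1 shRNA 1 one of 0.253.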
